A study of Mus musculus with 12 samples.

Results

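The transforming growth factor beta (TGF-beta) and bone morphogenetic protein (BMP) ligands, their antagonists and the proteins that hold TGF-beta in latent form were examined in fetal mouse gonads, leaving aside the activin and AMH ligands that the genotype removes. The list holds 40 genes, chosen by family and role with no threshold on their values. For each, the array probe set group (transcript cluster) annotated with that gene alone was taken, which gave 39 genes of 30176 with such a cluster on the array. Gdf15 had none and is not analysed here. Each of the 39 had 1 cluster, and its chromosome was the one that RefSeq gives for the gene in 39 of 39. The samples were gonads at E12.5 in 3 groups of 4 arrays: dKO XY (Amh-/-; Inhbb-/- testes), control XX (wild type ovaries) and control XY (wild type testes). Embryos came from timed matings of Amh+/-; Inhbb+/- animals, both genes being absent from every cell of the dKO embryo, and the gonads had been freed of the mesonephros. The study calls its samples biologically independent replicates and describes arrays of its later stage as single gonads, whereas the labels tie no sample to an animal and do not give the number of gonads in it. All p-values below therefore rest on the spread between samples.

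Ligands of this family are secreted dimers that bring together a type I and a type II receptor kinase on the target cell, and the activated receptor phosphorylates SMAD proteins that enter the nucleus. TGF-beta, myostatin and their nearest relatives signal mainly through SMAD2 and SMAD3, and BMPs through SMAD1, SMAD5 and SMAD9. Antagonists such as noggin and chordin bind BMPs outside the cell, whereas latent TGF-beta binding proteins tether the inactive TGF-beta complex to the matrix. In the fetal ovary BMP2 is a known product of the supporting cell lineage, and NODAL signalling is known from germ cells of the fetal testis.

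The targeted genes followed their labels. Amh was at 5.59 to 5.90 (log2 intensity) in dKO XY, 5.14 to 5.52 in control XX and 10.56 to 13.38 in control XY, and Inhbb was at 6.69 to 6.99, 6.49 to 6.97 and 7.10 to 8.02 in the same 3 groups. The arrays were not alike in overall response. On each array the positive control probe sets averaged above the negative ones by an amount called signal contrast here, which was 3.11 ± 0.59 in dKO XY, 3.41 ± 0.23 in control XX and 4.07 ± 0.32 in control XY (SD, n = 4 each). It was lowest on dKO XY 3 and dKO XY 1 (2.48 and 2.83). The 1227 clusters of olfactory receptors, genes for which little transcript is expected in a gonad, had a median of 5.93 ± 0.24 in dKO XY, 5.69 ± 0.17 in control XX and 5.39 ± 0.17 in control XY. Of these, 523 passed the test below as higher in dKO XY than in control XY, and 0 as lower. By olfactory receptor median, all dKO XY arrays exceeded all control XY arrays (exact permutation test, two-sided, p = 0.0286, which is as small as this design allows, and 0.0857 adjusted over 6 such tests). For signal contrast the exact p was 0.0571 (adjusted 0.114). Between control XX and control XY it was 0.0286 for signal contrast (adjusted 0.0857) and 0.0857 for the olfactory receptor median (adjusted 0.129). The share of these array differences in the results on single genes was not tested, and each comparison is therefore given also without dKO XY 1 and 3 and with signal contrast as a covariate.

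Most of these genes gave low signal. An array's 95th percentile of olfactory receptor clusters, taken here as a yardstick after the data had been seen, lay between 6.40 and 7.82. The type I TGF-beta receptor Tgfbr1 and the BMP-binding protein Twsg1 exceeded it on all 12 arrays. Another 10 genes exceeded it on at least 4 arrays (Tgfb1, Tgfb2, Tgfb3, Tgfbr2, Bmp5, Gdf10, Gdf11, Ltbp1, Ltbp3 and Ltbp4). In 20 of the 39 it was exceeded on no array, among them Bmp2, Bmp15, Nodal, Lefty1, Lefty2, Nog, Chrd, Chrdl1, Chrdl2, Grem1, Mstn and Ltbp2. The negative control probe sets themselves spread widely, with a 95th percentile between 9.94 and 10.9, and against that stricter mark only Tgfbr1 on control XY 2 stood out. All differences below are therefore differences in log2 intensity and not ratios of transcript, and intensities of different clusters do not rank the genes by abundance.

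**Figure D1:**
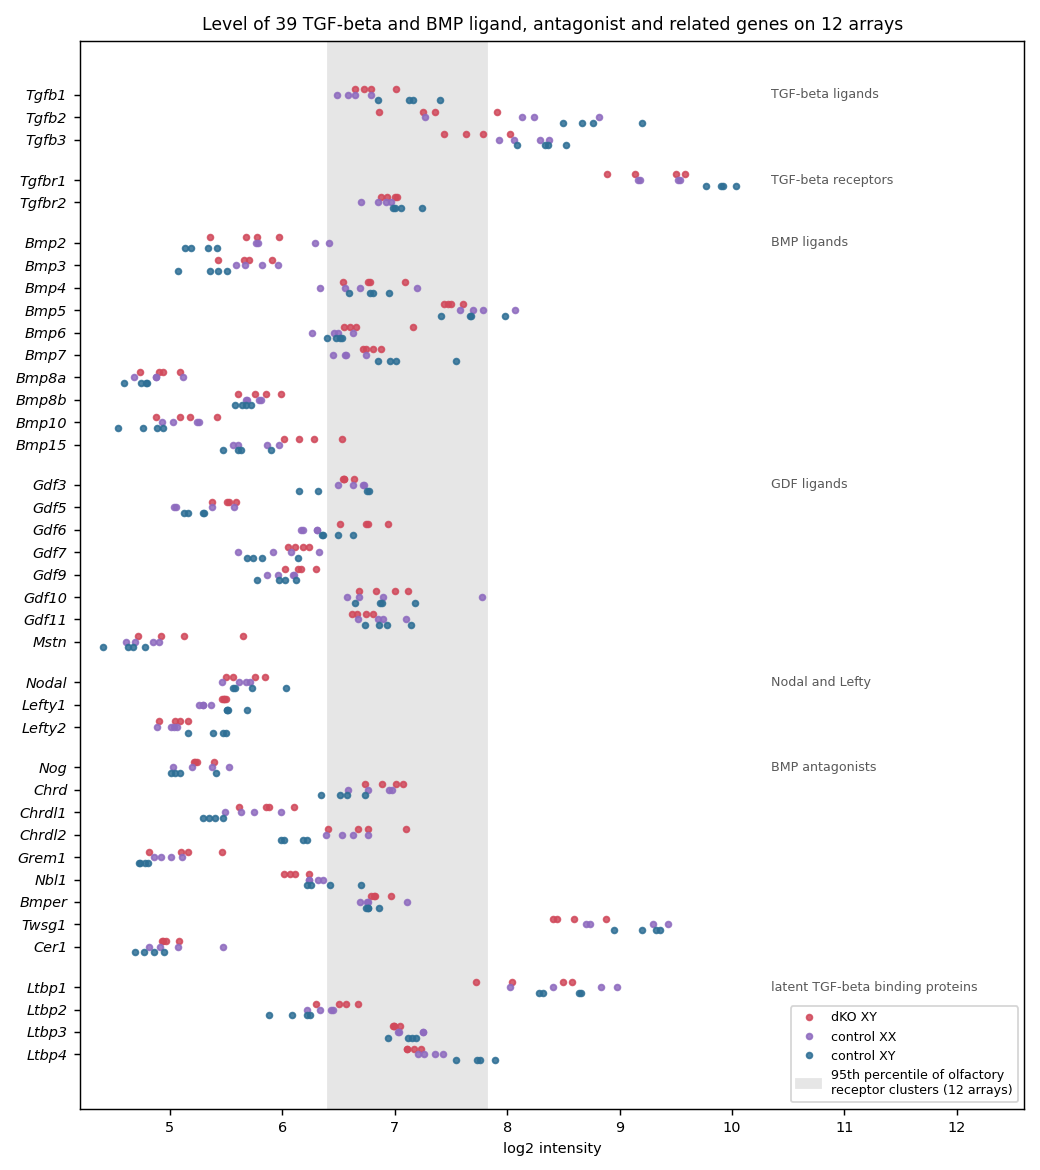
Log2 intensity (x axis) of 39 genes (rows, grouped by role) on 12 arrays, 1 point an array, with dKO XY above control XX above control XY in each row. The grey band spans the 95th percentile of olfactory receptor clusters over the 12 arrays (6.40 to 7.82), and only Tgfbr1 and Twsg1 exceeded their own array's percentile on all 12.

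The loss of Amh and Inhbb was examined first, dKO XY against control XY. A gene is called here where limma's adjusted p (Benjamini-Hochberg over 65956 clusters) was under 0.05. Of the 39 genes, 11 were called (28.2%), close to the 26.5% of all clusters called in this comparison. Tgfb2, Tgfb3, Tgfbr1, Lefty2, Twsg1 and Ltbp4 were lower in dKO XY (6 of 39, or 15.4%, against 9.80% of all clusters called lower). Bmp15, Chrd, Chrdl1, Chrdl2 and Ltbp2 were higher (5 of 39, or 12.8%, against 16.7% of all clusters called higher), and with each array set to its olfactory receptor median none of these 5 was called, Bmp15 and Chrdl2 being at 0.05 and 0.09 and Chrd, Chrdl1 and Ltbp2 below 0. That centring lowered every difference by 0.54, left 19 genes called lower and 0 higher, and put 21 of the 23 genes that had been above 0 below it. It also left 40.8% of all 65956 clusters called, 26095 lower and 826 higher. The median difference of the 39 genes was 0.07, beside 0.17 for all clusters. The groups did not overlap in 14 of the 39 genes (35.9%), against 24.5% of all clusters. An unadjusted p under 0.05 was found for 19 of the 39 (48.7%), against 46.1% of all clusters.

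**Figure D2:**
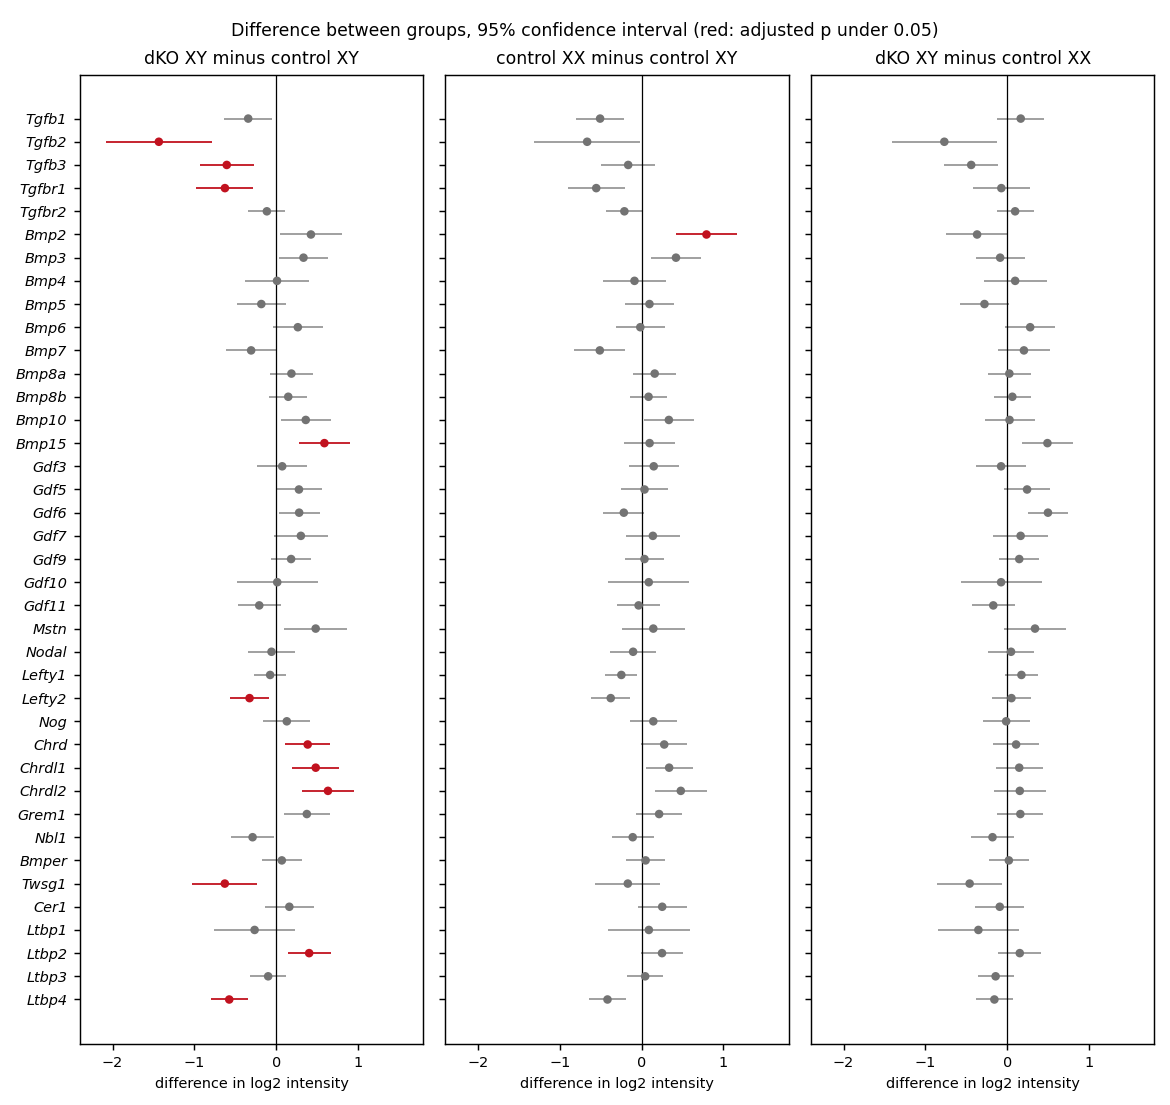
Difference in log2 intensity (x axis) of each gene (rows) with its 95% confidence interval in dKO XY minus control XY, control XX minus control XY and dKO XY minus control XX, 4 arrays a group. Red marks an adjusted p under 0.05, with 11 genes in the first panel, 1 (Bmp2) in the second and 0 in the third. Of the 5 red genes above 0 in the first panel, Chrd, Chrdl1 and Ltbp2 fell below 0 after centring on olfactory receptors.

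Among the TGF-beta ligands the largest difference of all 39 genes was that of Tgfb2, which encodes an isoform made by many mesenchymal and epithelial tissues of the embryo. It read 7.25, 7.91, 6.86 and 7.35 on dKO XY arrays 1 to 4, against 8.13, 8.82, 7.27 and 8.24 on control XX and 8.76, 8.49, 9.20 and 8.66 on control XY. All 4 dKO XY arrays lay below all 4 control XY arrays, while control XX overlapped both groups. The difference from control XY was −1.44 (95% CI −2.08 to −0.79, adjusted p = 0.0212). It was the 1 gene of the 39 called lower with a difference beyond 1 log2 unit, the study's 2-fold limit. Of all clusters, 2.60% were called lower beyond that limit. With the same limit and a corrected p-value, the study describes global expression in dKO XY and control XY at E12.5 as statistically indistinguishable. The calls given here thus depart from the study's account, and the source of that departure was not tested. Tgfb3, the isoform best known for its role in palate fusion, read 7.64, 8.02, 7.44 and 7.79 on dKO XY, against 8.37, 8.29, 7.92 and 8.06 on control XX and 8.33, 8.36, 8.52 and 8.08 on control XY. Here too dKO XY and control XY were separate, though the highest dKO XY array came within 0.1 of the lowest control XY array. Tgfb3 was lower by a difference of −0.60 (95% CI −0.94 to −0.27, adjusted p = 0.0249). Tgfb1, whose product acts widely on immune and stromal cells, lay at 6.65 to 7.01 in dKO XY and 6.85 to 7.40 in control XY, with a difference of −0.34 that did not pass (adjusted p = 0.0691).

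Of the TGF-beta receptors, Tgfbr1, the type I kinase that carries the signal of all TGF-beta isoforms, read 9.14, 9.58, 8.89 and 9.50 on dKO XY, against 9.18, 9.52, 9.17 and 9.53 on control XX and 9.92, 10.03, 9.90 and 9.77 on control XY. Both dKO XY and control XX lay wholly below control XY, and the control XX arrays fell inside the wider dKO XY range. Tgfbr1 was lower in dKO XY by a difference of −0.63 (95% CI −0.98 to −0.28, adjusted p = 0.0255). Its partner Tgfbr2, the type II receptor that binds the ligand first, was at 6.88 to 7.02 in dKO XY and 6.99 to 7.25 in control XY (difference −0.11, 95% CI −0.34 to 0.11, adjusted p = 0.391).

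The latent TGF-beta binding proteins went in both directions. Ltbp4, which binds latent TGF-beta 1 and takes part in elastic fibre assembly, read 7.11, 7.17, 7.11 and 7.23 on dKO XY, against 7.21, 7.43, 7.26 and 7.36 on control XX and 7.73, 7.54, 7.89 and 7.76 on control XY. The dKO XY arrays lay close together and all below control XY. Ltbp4 was lower by a difference of −0.57 (95% CI −0.80 to −0.35), with the smallest adjusted p of the 39 genes (0.0191). Ltbp2, a microfibril protein that does not bind latent TGF-beta itself, read 6.57, 6.30, 6.68 and 6.50 on dKO XY, against 6.45, 6.33, 6.44 and 6.22 on control XX and 6.25, 6.08, 5.89 and 6.22 on control XY. The lowest dKO XY array was just above the highest control XY array. Ltbp2 was higher by 0.40 (95% CI 0.14 to 0.67, adjusted p = 0.0349), though −0.14 after centring on olfactory receptors. Ltbp1 and Ltbp3, the other members of that family, differed by −0.26 and −0.10 with adjusted p of 0.37 and 0.451.

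Nodal, a ligand of early axis formation, read 5.85, 5.56, 5.76 and 5.50 on dKO XY, against 5.71, 5.68, 5.47 and 5.62 on control XX and 5.57, 5.73, 5.56 and 6.03 on control XY. The 3 groups overlapped throughout, and the difference of dKO XY from control XY was −0.06 (95% CI −0.34 to 0.23, adjusted p = 0.743). Lefty2, a secreted NODAL inhibitor, read 5.05, 4.91, 5.17 and 5.09 on dKO XY, against 4.89, 5.06, 5.04 and 5.01 on control XX and 5.47, 5.16, 5.38 and 5.50 on control XY. The groups touched at dKO XY 3 and control XY 2. Lefty2 was lower by a difference of −0.33 (95% CI −0.56 to −0.09, adjusted p = 0.0456), and this call survived the removal of 1 of the 12 arrays only, control XX 2. Its paralog Lefty1, from which probes may not fully separate it, had 3 groups that did not overlap, at 5.46 to 5.50 in dKO XY, 5.26 to 5.37 in control XX and 5.50 to 5.68 in control XY. Its difference from control XY was −0.07 (adjusted p = 0.525).

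Among 10 BMP ligands 1 was called in dKO XY against control XY. Bmp15, an oocyte factor whose mature role lies in ovarian follicles after birth, read 6.15, 6.01, 6.53 and 6.28 on dKO XY, against 5.57, 5.86, 5.97 and 5.61 on control XX and 5.64, 5.61, 5.47 and 5.90 on control XY. Every dKO XY array was above every array of both control groups. Bmp15 was higher than in control XY by 0.59 (95% CI 0.27 to 0.91, adjusted p = 0.0242), and it exceeded the olfactory receptor yardstick on no array. The other 9 differed by −0.31 (Bmp7) to 0.42 (Bmp2), with adjusted p from 0.0692 to 0.973. They include Bmp4, a germ cell inducer of the early embryo, at 0.01 (95% CI −0.38 to 0.40), and the near-identical pair Bmp8a and Bmp8b (0.19 and 0.15), whose probes may not be told apart. None of the 8 GDF ligands was called, including Gdf9, the oocyte partner of Bmp15, at 0.18 (95% CI −0.06 to 0.43). Their differences ran from −0.21 (Gdf11, an axial patterning factor) to 0.48 (Mstn, the muscle growth inhibitor, adjusted p = 0.0586), 2 having an unadjusted p under 0.05.

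Of 9 BMP antagonists 3 were called higher in dKO XY, 2 of them (Chrd and Chrdl1) turning lower without a call after centring on olfactory receptors, and 1 was called lower. Chrdl2, a chordin-like BMP binder, read 6.76, 6.41, 7.10 and 6.67 on dKO XY, against 6.63, 6.53, 6.77 and 6.39 on control XX and 6.22, 6.18, 6.02 and 5.99 on control XY. Control XY lay below both other groups. The difference of dKO XY was 0.63 (95% CI 0.32 to 0.95, adjusted p = 0.0223). Chrdl1, the second chordin-like gene, read 5.86, 5.62, 6.10 and 5.88 on dKO XY, against 5.75, 5.63, 5.99 and 5.49 on control XX and 5.48, 5.30, 5.35 and 5.40 on control XY, a higher level by 0.48 (95% CI 0.19 to 0.77, adjusted p = 0.0288) that was −0.06 after centring on olfactory receptors. Its dKO XY and control XY arrays did not overlap. Chrd, which encodes chordin, read 7.08, 6.73, 7.01 and 6.88 on dKO XY, against 6.97, 6.76, 6.95 and 6.59 on control XX and 6.73, 6.51, 6.35 and 6.57 on control XY. The lowest dKO XY and the highest control XY array were nearly level. Chrd was higher by 0.38 (95% CI 0.11 to 0.66, adjusted p = 0.0452), though −0.16 after the same centring.

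Twsg1, whose product binds BMPs together with chordin and can either block or free them, went the other way. It read 8.41, 8.88, 8.44 and 8.59 on dKO XY, against 8.70, 9.29, 8.73 and 9.43 on control XX and 9.36, 9.33, 9.20 and 8.95 on control XY. The dKO XY arrays were all below control XY, while control XX split into 2 arrays near the dKO XY level and 2 at the control XY level. Twsg1 was lower by a difference of −0.63 (95% CI −1.02 to −0.23, adjusted p = 0.0321). Grem1, a DAN family BMP antagonist best known from the limb bud, differed by 0.37 just outside the threshold (adjusted p = 0.0507), and the other 4 antagonists (Nog, Nbl1, Bmper and Cer1) by −0.29 to 0.16.

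**Figure D3:**
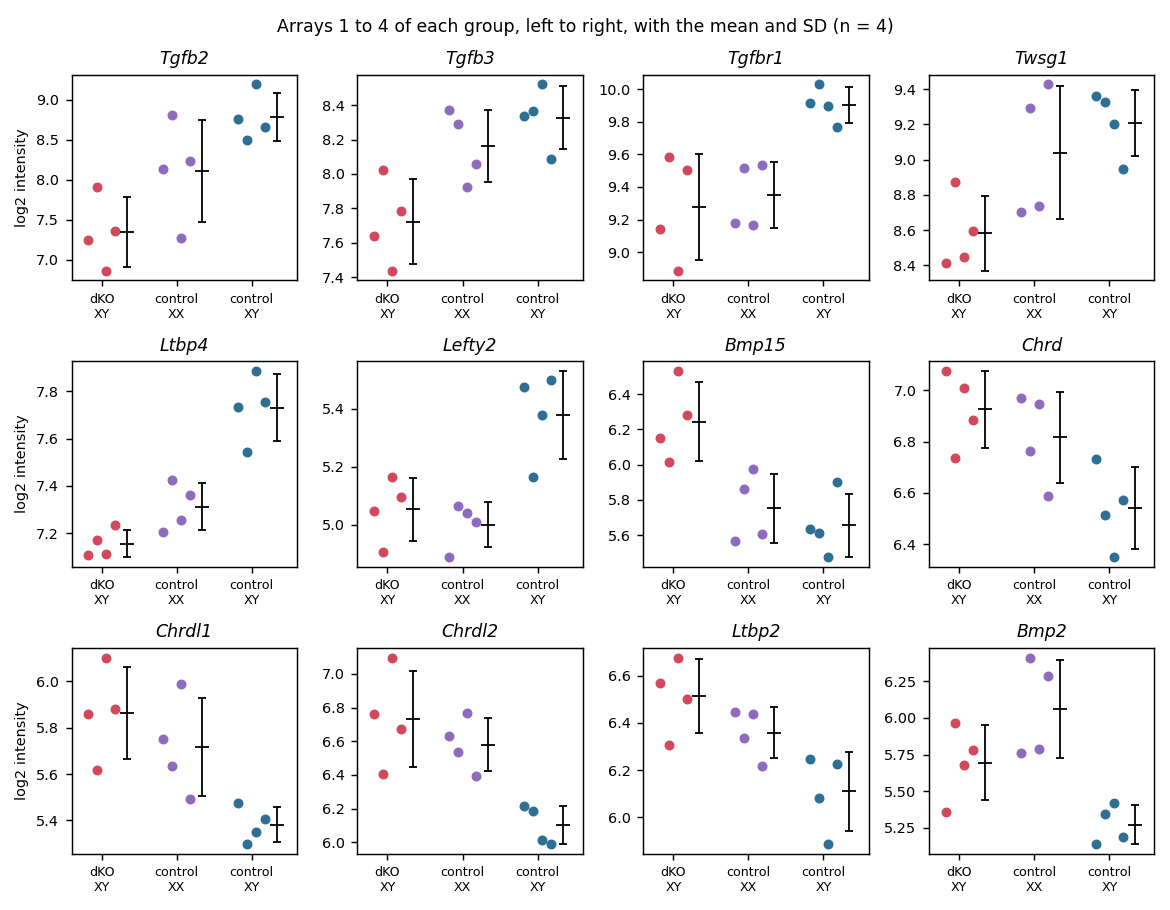
Log2 intensity (y axis, its own range in each panel) of the 12 genes called in any comparison, 1 point an array in dKO XY, control XX and control XY, with the mean and SD of 4 arrays beside them. The first 6 panels hold the genes lower in dKO XY than in control XY, and the next 5 those higher, of which Chrd, Chrdl1 and Ltbp2 turned below control XY after centring on olfactory receptors. Bmp2, in the last panel, was called in control XX against control XY.

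Differences across the whole array went with the level of signal, and those of the list lay near them. The mean over all 12 arrays is used here because the olfactory receptor yardstick is itself lower on control XY arrays (6.40 to 6.91) than on dKO XY arrays (7.04 to 7.82), so that Ltbp4, for example, passed it on 1 dKO XY, 2 control XX and 4 control XY arrays. At a 12-array mean of 5.5 to 6.5 the median difference was 0.32 for 12 genes of the list and 0.30 for 22038 clusters. Between 6.5 and 7.5 the medians were −0.04 for 12 genes of the list and 0.09 for all clusters, and between 7.5 and 8.5 they were −0.43 for 4 genes and −0.28. At 8.5 and over, Tgfbr1 and Twsg1 had a median of −0.63, beside −0.54 for 10109 clusters, of which 36.0% were called lower. Tgfb2, at −1.44, stood farthest from the median of its level. Whether signal level has a part in these calls was not tested.

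**Figure D4:**
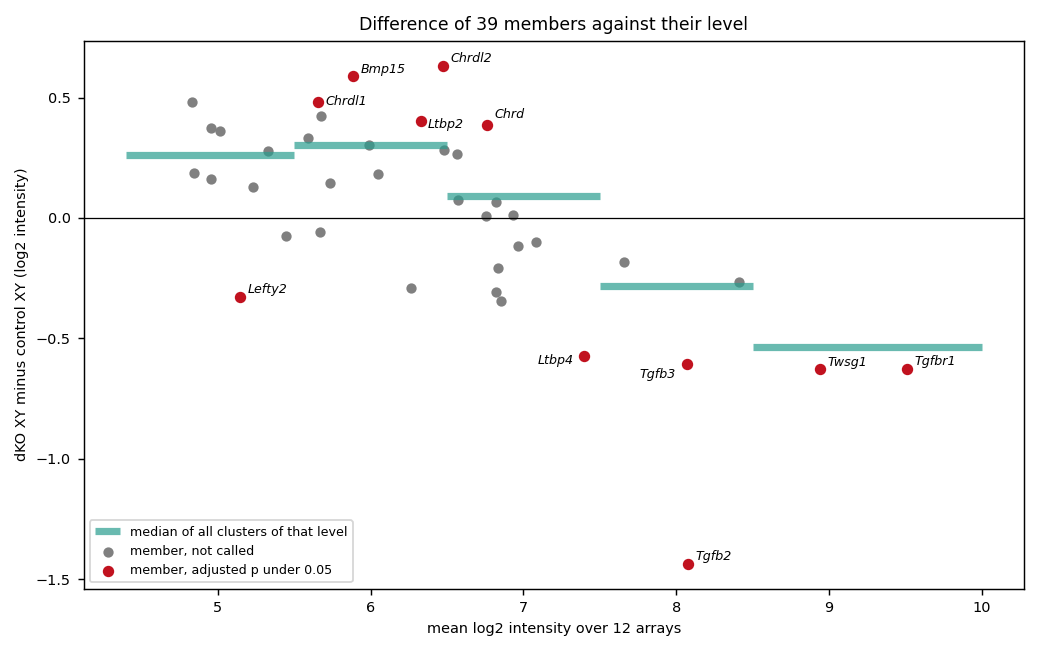
Difference between dKO XY and control XY (y axis, log2 intensity) of 39 genes against their mean log2 intensity over 12 arrays (x axis), with called genes in red. Green lines give the median of all clusters in 5 ranges of level (0.26, 0.30, 0.09, −0.28 and −0.54), the outermost ranges being drawn only as far as the plot.

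Every one of the 11 calls was lost when dKO XY 1, dKO XY 3 or control XY 3 was left out, and the number of all clusters called was then 78, 197 and 110. Without both dKO XY 1 and 3, 0 of the 39 genes were called by limma (10 at an unadjusted p under 0.05) and 4 of all clusters. The sizes were in part retained, with Tgfb2 at −1.15, Ltbp4 at −0.53, Lefty2 at −0.38, Tgfbr1 at −0.36, Bmp15 at 0.49 and Chrdl2 at 0.44. With signal contrast as a covariate 0 were called (4 at an unadjusted p under 0.05, and 0 of all clusters called), and Tgfb2 was at −0.66, Tgfbr1 at −0.15, Twsg1 at −0.18 and Chrd at 0.08. Signal contrast was 2.48 to 3.83 in dKO XY and 3.70 to 4.44 in control XY, so that fit can hardly separate it from group. Quantile normalization, which gives all arrays 1 distribution and left 2.74% of all clusters called, left Lefty2 (−0.61, adjusted p = 0.0211) and Ltbp4 (−0.56, adjusted p = 0.0332) called lower. It added Nbl1, a DAN family BMP antagonist, at −0.54, and put Tgfb2 at −1.30 (adjusted p = 0.0511).

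**Figure D5:**
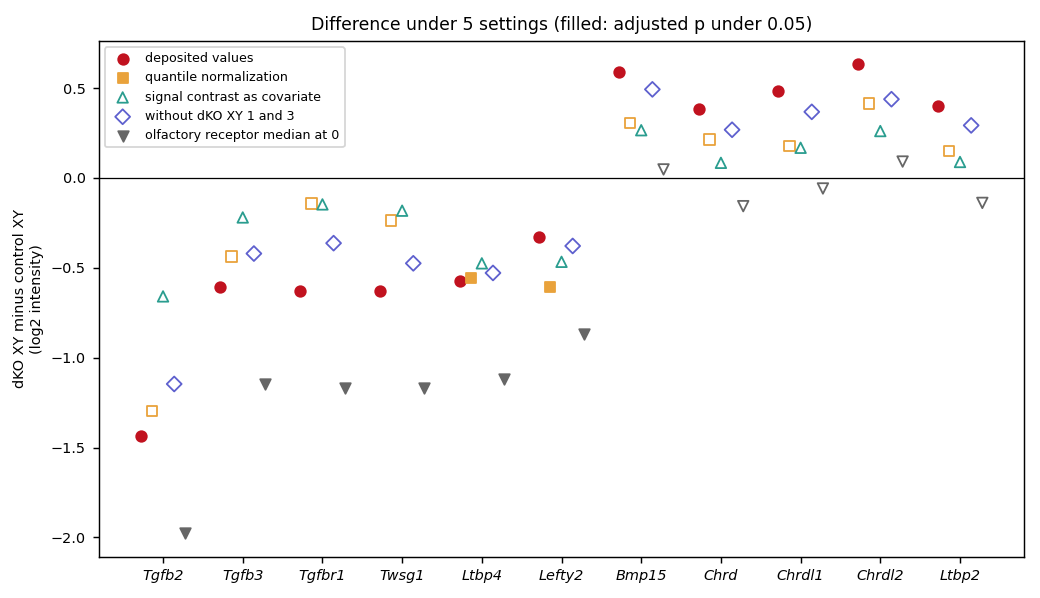
Difference between dKO XY and control XY (y axis, log2 intensity) of the 11 called genes (x axis) under 5 settings, filled where the adjusted p was under 0.05. The 6 genes below 0 on the deposited values were below 0 in all 5 settings, and of the 5 above 0, Chrd, Chrdl1 and Ltbp2 fell below it with the olfactory receptor median at 0.

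The sex difference was examined in control XX against control XY, where 1 of the 39 genes was called (2.56%, against 1.95% of all clusters). Bmp2 was higher in control XX (0.608% of all clusters were called higher), and it is the member of the family best known from the fetal ovary. Bmp2 read 5.35, 5.97, 5.68 and 5.78 on dKO XY, against 5.76, 6.41, 5.79 and 6.29 on control XX and 5.14, 5.34, 5.42 and 5.18 on control XY. The control groups did not overlap, and within control XX arrays 2 and 4 stood above arrays 1 and 3. The difference between control XX and control XY was 0.79 (95% CI 0.41 to 1.17, adjusted p = 0.0393). It was 1.08 with signal contrast as a covariate (adjusted p = 0.0167) and 0.60 after quantile normalization (adjusted p = 0.231). Signal contrast did not overlap between these groups (3.21 to 3.65 in control XX, 3.70 to 4.44 in control XY), so the covariate fit can hardly separate it from sex. The call was lost without dKO XY 4, control XX 2, control XX 4 or any 1 of the control XY arrays, with adjusted p of up to 0.0992. On the deposited values Bmp2 in dKO XY lay between the controls, and neither difference passed. It was 0.42 above control XY (95% CI 0.05 to 0.80, adjusted p = 0.0801) and −0.37 from control XX (95% CI −0.75 to 0.01, adjusted p = 0.491). After centring on olfactory receptors Bmp2 in dKO XY fell below control XY, without a call. Control XX then remained above control XY, also without a call.

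Other genes of the list had control groups that did not overlap, 13 of 39 in all with Bmp2 (33.3%, against 13.7% of all clusters), without passing the test over all clusters (1.95% of which did). Ltbp4 differed by −0.42 (95% CI −0.65 to −0.19, adjusted p = 0.0636), Tgfb1 by −0.51 (95% CI −0.80 to −0.22, adjusted p = 0.0763), Bmp7, a BMP of kidney and eye development, by −0.51 (95% CI −0.83 to −0.20, adjusted p = 0.0946), and Tgfbr1 by −0.56 (adjusted p = 0.101). Chrdl2 differed by 0.48 (95% CI 0.16 to 0.79, adjusted p = 0.115). Tgfb2 and Tgfb3 differed by −0.67 and −0.17, and their control groups overlapped (adjusted p = 0.22 and 0.503). Nodal differed by −0.11 (95% CI −0.39 to 0.18, adjusted p = 0.625). Over the 39 genes 12 had an unadjusted p under 0.05 (30.8%, against 21.7% of all clusters), and the median difference was 0.05, beside 0.12 for all clusters.

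In dKO XY against control XX limma called 0 of the 39 genes, where 0.215% of all clusters were called. At an unadjusted p under 0.05 there were 5 (Tgfb2, Tgfb3, Bmp15, Gdf6 and Twsg1, or 12.8%, against 10.33% of all clusters), and the model without moderated variances also called 0. Gdf6, a joint and skeletal BMP relative, was at 6.52 to 6.94 in dKO XY, 6.17 to 6.31 in control XX and 6.35 to 6.63 in control XY. Its dKO XY arrays were above all control XX arrays by 0.50 on average (95% CI 0.25 to 0.75, adjusted p = 0.16). The difference was 0.49 for Bmp15 (95% CI 0.18 to 0.81, adjusted p = 0.311), −0.77 for Tgfb2 (95% CI −1.41 to −0.12, adjusted p = 0.433), −0.44 for Tgfb3 (95% CI −0.77 to −0.11, adjusted p = 0.383) and −0.46 for Twsg1 (95% CI −0.85 to −0.06, adjusted p = 0.442). For Tgfbr1 it was −0.07 (95% CI −0.42 to 0.28) and for Ltbp4 −0.16 (95% CI −0.38 to 0.07). The 3 comparisons share their arrays pairwise and are not independent of one another.

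Other genes of the pathway, 55 of 58 with a cluster of their own, were counted in the same way. In dKO XY against control XY 19 were called (34.5%, against 26.5% of all clusters), with a median difference of −0.23. Of the 55, 17 were lower (30.9%, against 9.80%) and 2 higher (3.64%, against 16.7%). These shares of all clusters are not matched for signal level. At a mean level of 7.5 to 8.5, 26.8% of all clusters were called lower, and 36.0% at 8.5 and over. With the olfactory receptor filter, 16 of 34 pathway genes were called lower and 0 higher. Genes pass it more readily on control XY arrays, where the yardstick is lower, so these counts are not independent of that choice. Itgb8, for example, exceeded the yardstick on 4 control XY, 1 control XX and 0 dKO XY arrays. Of 23912 clusters kept by that filter, 6165 were called lower and 1889 higher. Whether signal level has a part in the 19 calls was not tested. Of 10 type I and II receptors 4 were lower, among them the BMP receptors Bmpr2 (−1.44, adjusted p = 0.0206) and Bmpr1a (−1.02) and the activin and BMP receptor Acvr1 (−0.58). Of 8 co-receptors and pseudoreceptors, Bambi, a receptor decoy, and Tgfbr3, the TGF-beta co-receptor betaglycan, were lower (−0.92 and −0.63), and Hjv, a BMP co-receptor of iron control, was higher (0.57). Smad4, the partner of all receptor-activated SMADs, was the 1 of 8 SMAD genes called (−0.79, adjusted p = 0.0256). Among 9 further antagonists Fstl1, a secreted follistatin-like protein, and Sostdc1, a BMP and WNT inhibitor, were lower (−1.40 and −0.74). Of 15 genes of processing and latency, 7 were lower, with Itgb8 and Itgav, the subunits of an integrin that frees active TGF-beta, at −0.996 and −0.893 and the matrix protein Thbs1 at −0.81. Itgb6 was higher there (0.37, though −0.17 without a call after centring on olfactory receptors). Of 5 other ligands 1 was called, Inha, which was lower (−0.79, adjusted p = 0.0223). All 19 lost their call when dKO XY 1, dKO XY 3 or control XY 3 was left out.

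In control XX against control XY 9 of these 55 genes were called (16.4%, against 1.95% of all clusters). Fst, the activin antagonist follistatin, was higher by 4.96 and Bmpr1b by 0.45. Pcsk5, a proprotein convertase that cleaves TGF-beta family precursors, was lower (−1.33, adjusted p = 0.000109), as were Itgb8 (−1.14), Sostdc1 (−0.95), Tgfbr3 (−0.89), Inha (−0.87), Itgav (−0.86) and Acvr1 (−0.79). Between dKO XY and control XX 2 were called, Fst lower (−4.59, adjusted p = 0.000152) and Pcsk5 higher (0.73, adjusted p = 0.0303).

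Markers of the cell types of the gonad moved beside these genes. In whole gonads fewer cells of a type and less RNA per cell cannot be told apart. In dKO XY against control XY, 5 of 6 interstitial progenitor markers and 2 of 4 fetal Leydig cell markers were lower. So were 4 of 10 Sertoli cell markers and 3 of 8 endothelial markers. Of these 4 lists 0 markers were higher, where 9.80% of all clusters were lower. That share is not matched for signal level, and was 36.0% at a mean level of 8.5 and over. Lower too were 2 of 6 coelomic epithelium and 1 of 3 erythroid markers, and 2 of 8 macrophage, 2 of 6 muscle and 1 of 8 pre-granulosa markers were higher (16.7% of all clusters), the macrophage pair and 1 of the muscle pair turning below 0 after centring on olfactory receptors. Between control XX and control XY, 8 of 10 Sertoli cell and 5 of 6 interstitial markers were lower in control XX, where 883 of all 65956 clusters were lower. Also lower there were 1 of 4 fetal Leydig, 1 of 6 coelomic epithelium and 1 of 6 mesonephros markers. Of the pre-granulosa markers 5 of 8 were higher, against 0.608% of all clusters. In dKO XY against control XY without dKO XY 1 and 3, limma called 0 markers of the 4 lists named first. The median difference of the interstitial markers was then −1.21, against −1.60 with all arrays. The summed linear intensity of the interstitial markers was 2221 to 5844 in dKO XY, 2120 to 3682 in control XX and 11639.5 to 24136 in control XY. Fetal Leydig markers summed to 437 to 605, 387 to 1057 and 1070.2 to 5018 in the same 3 groups. Of 6 mesonephros markers 3 were higher (each turning lower, without a call, after centring on olfactory receptors) and 1, Osr2, lower in dKO XY (−0.96). On no array did 5 of the 6 exceed the olfactory receptor yardstick. Osr2 exceeded it on 4 control XY, 1 dKO XY and 0 control XX arrays, with means of 7.81, 6.85 and 6.59. The part of cell composition in the differences of Tgfb2, Tgfb3, Tgfbr1, Twsg1 and Ltbp4 was not tested.

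Promoter sequence is shown for 4 called genes of unlike signal and direction, Tgfb2 and Twsg1 (lower in dKO XY and with the stronger signal) and Chrd and Bmp15 (higher, with weaker signal, Chrd turning lower after centring on olfactory receptors). Each line gives the 250 bases before the start of the gene, 5′ to 3′ on the coding strand, from RefSeq on GRCm38.p6, in which 26 of the 39 genes had an entry. The windows are chr1:186705990-186706239 (minus strand) for Tgfb2, chr17:65951188-65951437 (minus) for Twsg1, chr16:20732877-20733126 (plus) for Chrd and chrX:6320725-6320974 (minus) for Bmp15. Capitals mark matches, on either strand, to the SMAD palindrome GTCTAGAC, the SMAD element CAGACA, the BMP-type SMAD element GGCGCC, the steroidogenic factor 1 motif AAGGTCA, the SOX motif AACAAT or the forkhead motif TAAACA.
Tgfb2: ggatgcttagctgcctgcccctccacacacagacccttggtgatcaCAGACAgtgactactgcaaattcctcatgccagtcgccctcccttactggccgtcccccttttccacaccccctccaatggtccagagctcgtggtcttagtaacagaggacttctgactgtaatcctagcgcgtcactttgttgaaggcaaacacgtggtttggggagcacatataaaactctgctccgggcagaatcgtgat
Twsg1: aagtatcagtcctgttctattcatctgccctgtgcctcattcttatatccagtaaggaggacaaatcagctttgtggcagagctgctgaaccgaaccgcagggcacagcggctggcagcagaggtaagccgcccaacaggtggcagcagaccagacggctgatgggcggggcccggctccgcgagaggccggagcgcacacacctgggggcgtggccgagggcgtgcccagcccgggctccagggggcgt
Chrd: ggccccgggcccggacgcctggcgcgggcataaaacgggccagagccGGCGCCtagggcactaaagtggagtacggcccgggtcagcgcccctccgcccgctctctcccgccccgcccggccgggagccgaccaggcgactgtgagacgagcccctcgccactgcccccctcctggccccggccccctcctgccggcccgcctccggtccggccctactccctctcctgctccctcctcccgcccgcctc
Bmp15: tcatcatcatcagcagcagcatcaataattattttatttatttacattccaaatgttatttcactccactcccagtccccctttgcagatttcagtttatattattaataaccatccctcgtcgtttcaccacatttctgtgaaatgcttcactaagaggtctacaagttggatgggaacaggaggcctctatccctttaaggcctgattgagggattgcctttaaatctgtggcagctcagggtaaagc

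The 4 windows differed mainly in CpG content, with 8 CpG dinucleotides in Tgfb2, 16 in Twsg1, 28 in Chrd and 2 in Bmp15, where the median of 32851 promoter windows of this length was 6. Tgfb2 held 1 match, to CAGACA, which 17.1% of all windows hold, and Chrd 1 match, to GGCGCC, which 9.59% hold. Twsg1 and Bmp15 held no match to these letters. The shares for the other motifs were 0.167% for GTCTAGAC, 4.08% for AAGGTCA, 9.42% for AACAAT and 12.03% for TAAACA.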

How the data were processed

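RNA from E12.5 gonads was, per the study's methods, amplified, labelled with biotin and run on mouse Clariom D arrays (Affymetrix). The table the authors deposited holds log2 intensity values of 72688 probe sets, 65956 of them transcript clusters, on 12 arrays (values 2.79 to 19.9). The methods name RMA and a one-way model. Background correction and summary of this table are not given in the sources used here, and its arrays are not on 1 distribution. The values were used as deposited, with no filter. Stage and group follow the sample labels, although the study's data statement lists this series under its other stage. The labels give no batch. Of the clusters, 30638 carried 1 gene symbol in the platform annotation, 2176 several and 33142 none.

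All 12 arrays were fitted as 3 group means by lmFit and eBayes of limma 3.58.1 (R 4.3.3), with Benjamini-Hochberg adjustment over all clusters and a threshold of 0.05. The fit was tested on simulated data. Intensity arrays have no read depth, and 4 arrays a group limit the precision (within-group correlations 0.966 to 0.988). Alternatives were quantile normalization, a filter on the 95th percentile of negative controls, signal contrast as a covariate, a replicate block, fits to 2 groups only or without eBayes, and leaving out arrays. The filter and centring on olfactory receptors were chosen after seeing the data. The genes, lists and the naming rule (array values for every gene called in any comparison, with Bmp2, Tgfb2 and Nodal in any case, and up to 3 called pathway genes a group) were chosen with earlier results of these data known. Plots used matplotlib 3.10.9.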

Additional observations from a re-analysis of the deposited data

Results flagged for a closer look

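Of 117 sets of 4 arrays (39 genes in 3 groups), 5 had 1 array far from the other 3 by Dixon's criterion, which chance alone would give in about 1 set in 20. In dKO XY, Gdf3, a GDF of the early embryo, was at 6.64 on array 1 and 6.54 to 6.55 on the others. Ltbp3, a latent TGF-beta binding protein, was at 7.04 on the same array and at 6.99 on the others. Nog, which encodes the BMP antagonist noggin, was at 5.40 on dKO XY 4 and 5.22 to 5.24 on the others. In control XY, Lefty1 was at 5.68 on array 3 and 5.50 to 5.52 on the others, and Bmper, a chordin-type BMP regulator, was at 6.86 on array 3 and 6.75 to 6.76 on the others. Each gap was under 0.2 log2 units, and none of the 5 genes was called in any comparison of the deposited values by limma. Under other settings Lefty1 was called in control XX against control XY (without eBayes) and Bmper in dKO XY against control XY (after centring on olfactory receptors).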

How the results depend on the processing

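In dKO XY against control XY, the 11 genes called (5 higher, 6 lower) became 3 after quantile normalization (all lower), 0 with the signal contrast covariate, 0 without dKO XY 1 and 3, 5 (of 12 tested, all lower) with the olfactory receptor filter and 19 (all lower) with olfactory receptor centring. Of all clusters tested, 2.74%, 0%, 0.00606%, 33.7% and 40.8% were called under these settings in turn. Leaving out 1 array gave 0 to 15 genes, and 0.118% to 42.6% of all clusters. The 19 pathway genes called became 5, 0 and 0 under the first 3 settings, 2 (of 2 tested) with the negative control filter and 46 (all lower) with centring; leaving out 1 array gave 0 to 27. The median of the 39 genes (0.07) became −0.11 after quantile normalization and −0.47 with centring. With the olfactory receptor filter it was −0.30 over the 12 genes kept, beside −0.27 for all clusters kept. That filter passes genes more readily on control XY arrays, where the yardstick is lower (Tgfb1 passed it on these arrays only). Its median and its calls are thus not independent of that choice. Centring moved the median of all clusters to −0.37, against 0.17 as deposited and −0.01 after quantile normalization, and put 21 of 23 genes that had been above 0 below it. Among the 21 are those with a call in either setting, Bmp4 (−0.53), Bmp8b (−0.39), Gdf9 (−0.36), Bmper (−0.47), Chrd (−0.16), Chrdl1 (−0.059) and Ltbp2 (−0.14), the first 4 of them called after centring. The negative control filter left none of the 39 genes to test, and averaging several clusters of a gene could not be run because each had 1.

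In control XX against control XY, the 1 gene called became 2 without eBayes (Lefty1 and Ltbp4), 2 without dKO XY 1 and 3 (Bmp2 and Tgfbr1) and 2 with the olfactory receptor filter (Tgfb1, which passed it on control XY arrays only, and Ltbp4), and leaving out 1 array gave 0 to 1. Of all clusters tested, 1.19%, 2.70% and 5.98% were called under these settings in turn, and 0.863% to 2.76% with 1 array left out. After quantile normalization and after centring the 1 gene called was Lefty2 (−0.56 and −0.68). The 9 pathway genes called became 3 with the covariate, and 5 to 10 when 1 array was left out. The negative control filter left 2 pathway genes to test, Bmpr2 and Fstl1, and neither was among the 9. Its 0 calls therefore do not bear on them. The median (0.048) became −0.046 after quantile normalization, −0.17 with the olfactory receptor filter and −0.25 with centring.

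In dKO XY against control XX, 0 genes were called under any setting run. The 2 pathway genes called (Fst and Pcsk5) became 1 in the fit to 2 groups, without eBayes, with the replicate block and with centring, and 1 to 2 when 1 array was left out. Neither was among the 2 genes that the negative control filter left to test, of which 0 were called. The median (0.047) became −0.047, −0.16 and −0.20 under quantile normalization, filter and centring. The cause of these shifts was not tested.

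Correlations between arrays of the same replicate number, in their deviations from the group means, ran from −0.41 to 0.37. In no comparison did all 4 exceed 0.1, although 3 of 4 did in dKO XY against control XX, so the numbers were not taken to pair the samples. With the replicate block, 10 of the 39 genes were called in dKO XY against control XY (Lefty2 was lost, adjusted p = 0.0634), 1 in control XX against control XY and 0 in dKO XY against control XX. Low signal limits 20 of the 39 genes, which exceeded the olfactory receptor yardstick on no array.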
